A study of Mus musculus with 6 samples.

Results

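The genes of prostaglandin synthesis, breakdown and E-type reception were followed in mouse skin fibroblasts (MSFs) with and without activated senescence. The set was chosen by name and holds 10 of the 22162 genes in the deposited table. It consists of the cyclooxygenases Ptgs1 and Ptgs2, the terminal synthases Ptges, Ptgis and Ptgds, the prostaglandin E receptors Ptger1, Ptger2, Ptger3 and Ptger4, and the prostaglandin-inactivating enzyme Hpgd. All 10 were found, each in 1 row. Poly(A) RNA was sequenced from 6 samples of dorsal skin MSFs on the FVB/N strain, cultured at 3% oxygen. Of these, 3 were given the ethanol vehicle and labelled non-senescent, and 3 were given 10 µM tamoxifen (TAM) and labelled senescent. They are called EtOH 1 to 3 and TAM 1 to 3 here, and a pair is an EtOH and a TAM library with the same number. By the study's methods the treatment lasted 48 h. The time of RNA harvest after treatment is not given in the sources used here. The MSFs were described as a line isolated from a female FASST mouse. The cells of both groups carry a TAM-dependent Cre recombinase (Cre-ERT2) under the pro-alpha 2(I) collagen promoter and a silent p27Kip1 cassette with GFP at the ROSA26 locus, which TAM switches on. The age of the donor mouse is not given in the sources used here. The design has no arm in which cells without the cassette received TAM, so the drug and the cassette cannot be told apart. The labels do not say that samples of a group came from separate animals or cultures, so the p-values measure the spread between these samples, which may be technical.

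Prostaglandins are lipid mediators made from arachidonic acid, which phospholipases cut from membranes. A cyclooxygenase then turns it into the unstable prostaglandin H2, and terminal synthases convert that into prostaglandin E2, D2 or I2. Ptgs1 is the cyclooxygenase that most cells keep at a steady level, whereas Ptgs2 is an immediate early gene induced by cytokines, growth factors and stress. Prostaglandin E2 acts through 4 receptors. EP1, encoded by Ptger1, is known to raise calcium, EP3, encoded by Ptger3, mainly lowers cyclic AMP, and EP2 and EP4, encoded by Ptger2 and Ptger4, raise it. In skin, prostaglandin E2 takes part in inflammation, pain and wound repair.

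The promoters of the cyclooxygenase genes, of Ptges and of Ptger4 are shown because these genes carry most of the values described here. The sequences are the 250 bases before the annotated start of each gene, from RefSeq on the GRCm38.p6 build, where 8 of the 10 genes had an entry (none for Ptger1 and Ptgis). The window lies at chr1:150099781-150100030 on the plus strand for Ptgs2, at chr2:36230176-36230425 on the plus strand for Ptgs1, at chr2:30903298-30903547 on the minus strand for Ptges and at chr15:5244188-5244437 on the minus strand for Ptger4. Each is written 5′ to 3′ along its gene, and capitals mark matches to the motifs searched.
Ptgs2: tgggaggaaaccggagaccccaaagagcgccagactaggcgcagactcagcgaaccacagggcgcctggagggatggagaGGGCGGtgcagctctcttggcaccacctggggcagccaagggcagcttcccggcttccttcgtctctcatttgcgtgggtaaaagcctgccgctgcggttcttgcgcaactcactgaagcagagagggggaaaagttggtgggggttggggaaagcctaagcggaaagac
Ptgs1: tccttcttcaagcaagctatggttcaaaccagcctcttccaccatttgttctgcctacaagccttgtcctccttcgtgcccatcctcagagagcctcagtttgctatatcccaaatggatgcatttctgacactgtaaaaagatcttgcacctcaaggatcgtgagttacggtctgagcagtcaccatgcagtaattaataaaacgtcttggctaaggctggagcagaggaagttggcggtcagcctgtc
Ptges: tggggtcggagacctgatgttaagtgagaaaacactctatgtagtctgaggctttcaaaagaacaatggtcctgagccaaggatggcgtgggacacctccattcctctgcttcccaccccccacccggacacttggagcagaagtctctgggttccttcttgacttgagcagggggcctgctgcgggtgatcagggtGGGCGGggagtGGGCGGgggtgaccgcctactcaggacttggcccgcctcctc
Ptger4: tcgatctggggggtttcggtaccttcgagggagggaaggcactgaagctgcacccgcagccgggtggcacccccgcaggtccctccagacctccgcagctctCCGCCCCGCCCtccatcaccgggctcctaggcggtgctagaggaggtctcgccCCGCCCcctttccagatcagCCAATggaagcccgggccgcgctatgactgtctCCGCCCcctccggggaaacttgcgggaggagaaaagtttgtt
The motifs searched on both strands were TATAAA (the TATA box), TGACGT (the core of a cyclic AMP response element), TGANTCA (AP-1), CACGTG (an E-box), GGGCGG (Sp1), CCAAT (NF-Y), and the NF-kB and C/EBP motifs. Matches were sought from 250 bases before to 50 bases after each start. Ptgs2 held 1 GGGCGG at 170 bases before the start. Just after its annotated start it also held TGACGT on the minus strand and an overlapping CACGTG, beginning 13 and 17 bases in. TGACGT occurred in 7.5% and CACGTG in 7.2% of all 32851 windows of this length. The window of Ptgs1 matched none of the motifs. Ptges held 2 GGGCGG boxes, and Ptger4 held 4, with 1 CCAAT. Of all windows, 35.7% held GGGCGG and 37.4% held CCAAT. A match is a description of letters and not a measured binding site.

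Values are normalized counts per gene as the authors deposited them. They summed to between 14952367 and 17314953 per library, and the smallest values above 0 lay between 0.36 and 0.89, so a value of a few normalized counts rests on a few reads. The read totals behind the libraries were not used here. The filter on low values was 1 c.p.m. (here 16.2 normalized counts, from the mean library sum), which 11877 genes reached in 3 or more libraries. These were compared by limma on log2(normalized counts + 1), with Benjamini-Hochberg adjustment over all of them. Same-numbered libraries departed from their group means together. A second fit therefore took the pair as a block. Scaling to equal library sums moved the median log2 difference of all genes from −0.033 to 0.078, and changed the sign of none of the prostaglandin genes tested. Cdkn1b, the mouse gene for p27Kip1, had 2118 ± 855 (SD, n = 3) normalized counts in the EtOH libraries and 1616 ± 90.4 (SD, n = 3) in TAM 1, 2 and 3. That gene did not pass the test (limma log2 fold change −0.32, adjusted p = 0.677), so EtOH and TAM name libraries by their labels alone. Whether reads of the cassette were counted on Cdkn1b is not given in the sources used here.

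Ptgs2 (ENSMUSG00000032487; chromosome 1 of mm9, 151947254 to 151955140, with its exons in 10 blocks) encodes the inducible cyclooxygenase. EtOH 1, 2 and 3 held 144, 2301 and 23.8 normalized counts of it. TAM 1, 2 and 3 held 508, 8358 and 403. All 3 pairs were higher on the TAM side, by 3.52-fold, 3.63-fold and 17.0-fold. The groups nevertheless overlapped, because EtOH 2 lay above TAM 1 and 3. Without the block the log2 fold change was 2.57, with a standard error of 1.77 (95% interval −1.61 to 6.74, limma adjusted p = 0.587). With the replicate block the standard error was 0.48 (95% interval 1.36 to 3.78, unadjusted p = 0.00257), and the adjusted p of 0.0854 from limma still missed the threshold of 0.05. With both libraries of replicate 1 or of replicate 2 left out of the blocked fit, the adjusted p was 0.0475 and 0.0349 (limma), on 2 pairs each and chosen after the data were seen. Of all genes, 142 and 855 passed in these fits, against 192 in the blocked fit of all pairs. Over the 22 alternatives to the fit without the block, the adjusted p ran from 0.0349 to 0.957. Ptgs2 was among the genes that varied most within a group. The SD of its log2 values within groups was 2.90, number 2 from the highest among the 11877 genes tested, against a median of 0.32.

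Ptgs1 (ENSMUSG00000047250; chromosome 2 of mm9, 36085946 to 36107792, exons in 11 blocks), the constitutive cyclooxygenase, behaved otherwise. Its normalized counts were 406, 1114 and 475 in EtOH 1, 2 and 3 and 469, 1226 and 399 in TAM 1, 2 and 3. The groups overlapped throughout, and both libraries of replicate 2 were the high ones. Fitted without the block, the log2 fold change was 0.03 (95% interval −1.21 to 1.27, limma adjusted p = 0.986). With the block the interval narrowed to −0.42 to 0.48 (adjusted p = 0.953), which bounds the difference without showing that there was none.

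**Figure D1:**
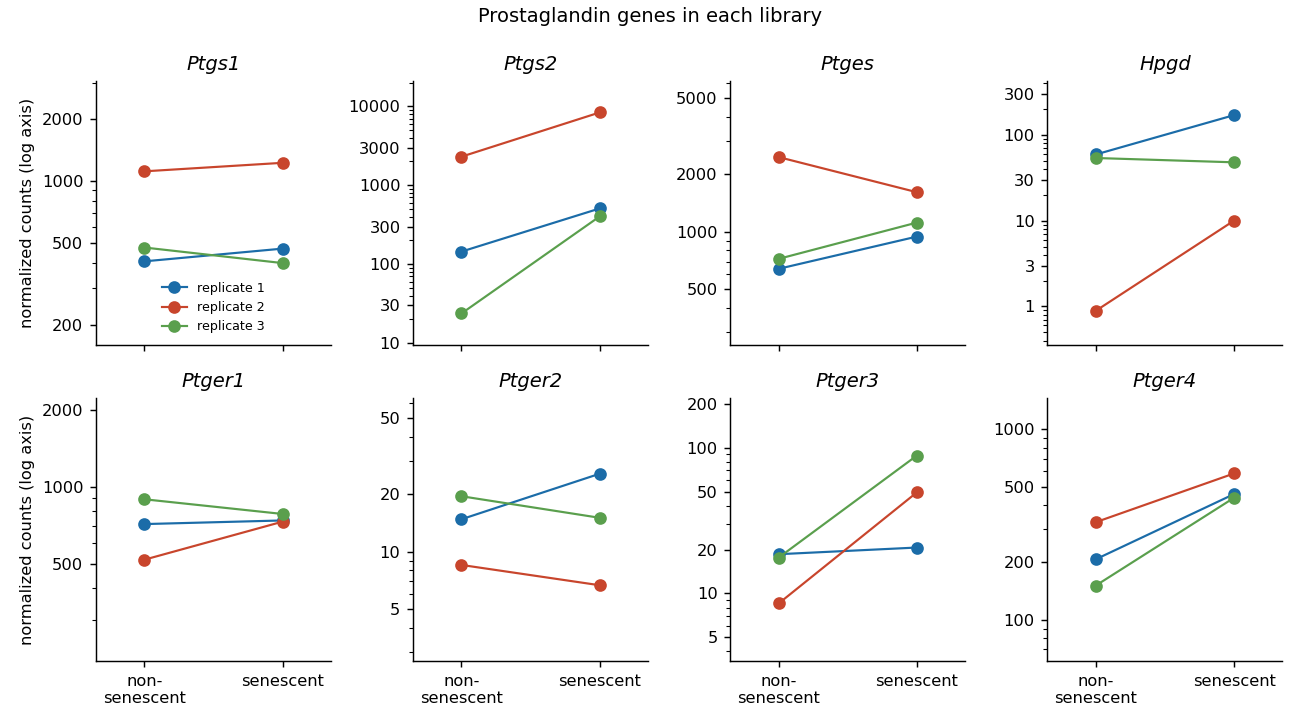
Normalized counts on log axes of 8 prostaglandin genes in the 6 libraries; each point is 1 library, and lines join libraries with the same replicate number. Ptgs2, Ptger3 and Ptger4 are higher in the TAM library in 3 of 3 pairs. For Ptgs1, Ptgs2 and Hpgd the lines of replicate 2 stand apart from the others.

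Levels of the cyclooxygenases were set against each other per kilobase of exon, with 4.14 kb for Ptgs2 and 3.88 kb for Ptgs1. Per kilobase, Ptgs2 stood at 34.8, 555 and 5.73 normalized counts in EtOH 1, 2 and 3 and at 123, 2017 and 97.3 in TAM 1, 2 and 3. On this scale the ratio of Ptgs2 to Ptgs1 within a library was 0.333, 1.94 and 0.0469 in the EtOH libraries. In the TAM libraries it was 1.02, 6.39 and 0.948. Ptgs1 was therefore the more abundant cyclooxygenase transcript in EtOH 1 and 3. In TAM 1 and 3 the levels of both genes were close to each other, and in replicate 2 Ptgs2 was the more abundant in either condition. The ratio was higher in the TAM library in each of the 3 pairs, and its groups overlapped. The mean log2 ratio was −1.68 ± 2.68 (SD, n = 3) in EtOH and 0.87 ± 1.56 (SD, n = 3) in TAM. This difference of 2.56 was within the spread of the libraries when taken as unpaired (exact permutation test, two-sided, p = 0.3, where 0.1 is the smallest p that 3 against 3 libraries allow). The permutation ignored the pairs, and the rise of the ratio within pairs was not tested.

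**Figure D2:**
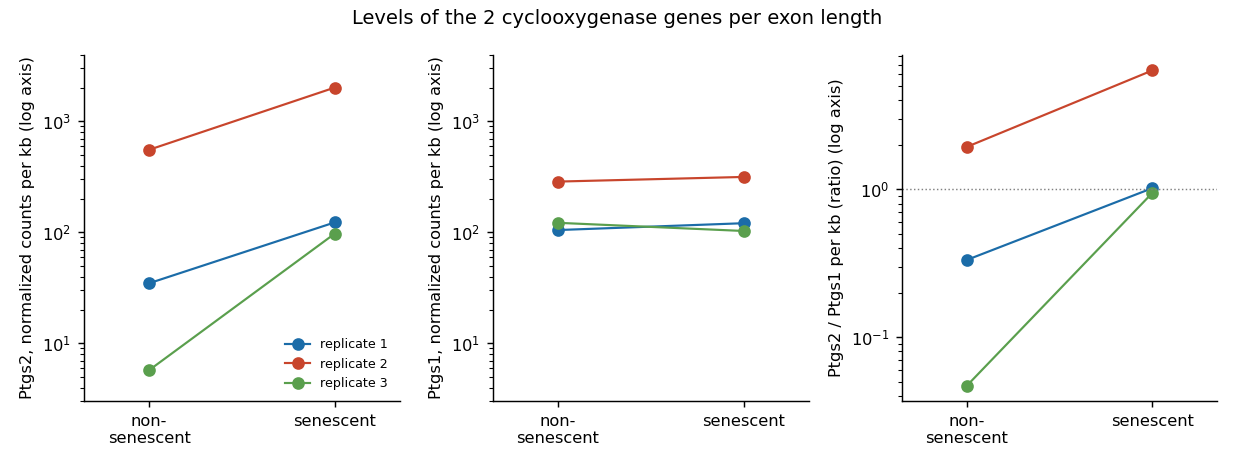
Ptgs2 and Ptgs1 in normalized counts per kilobase of exon and the ratio of these levels, on log axes, in the 6 libraries; lines join libraries with the same replicate number, and the dotted line marks a ratio of 1. The ratio runs from 0.0469 to 1.94 in the EtOH libraries and from 0.948 to 6.39 in TAM 1, 2 and 3.

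Of the 3 terminal synthases in the set, only that of prostaglandin E2 passed the filter. Ptges (ENSMUSG00000050737; chromosome 2 of mm9, 30744991 to 30785383) encodes the microsomal prostaglandin E synthase that is often coupled to Ptgs2. It had 641, 2462 and 723 normalized counts in EtOH 1, 2 and 3 and 945, 1613 and 1119 in TAM 1, 2 and 3. Replicates 1 and 3 were 1.47-fold and 1.55-fold higher in the TAM library, whereas replicate 2 went the other way, at 0.655-fold. Its log2 fold change was 0.19 (95% interval −1.02 to 1.40, limma adjusted p = 0.906), while blocking gave an interval of −0.54 to 0.93 (adjusted p = 0.782). Without both libraries of replicate 2 it was 0.59 in the blocked fit (limma adjusted p = 0.0614). Ptgds, the lipocalin-type prostaglandin D synthase (ENSMUSG00000015090; chromosome 2, 25322229 to 25325566), was listed at 2.77 in EtOH 3 and at 1.53 in TAM 3, and at 0 in the other 4 libraries. Ptgis, the prostacyclin synthase (ENSMUSG00000017969; chromosome 2, 167017305 to 167066104), was listed at 1.67 in TAM 1 and at 0 elsewhere. Neither reached the filter on low values, and these values leave no difference to be detected at this depth.

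Hpgd (ENSMUSG00000031613; chromosome 8 of mm9, 58773349 to 58799843) encodes 15-hydroxyprostaglandin dehydrogenase, which inactivates prostaglandin E2. Its normalized counts were 59.4, 0.89 and 54.0 in EtOH 1, 2 and 3 and 171, 10.0 and 48.1 in TAM 1, 2 and 3. In both groups replicate 2 was the low library, the reverse of its place for the cyclooxygenases and Ptges. Its difference on the log2 scale was 1.30 ± 1.53 (standard error; limma adjusted p = 0.759). The block brought that error to 0.58 (adjusted p = 0.344). Without EtOH 2, where 0.89 is also the smallest value above 0 in the library, the log2 fold change turned to −0.35 (limma adjusted p = 0.921). Without both EtOH 2 and TAM 2 it was 0.67, so the sign changed only when EtOH 2 alone of that pair was left out. The SD of its log2 values within groups was 2.45, number 10 from the highest of all genes tested.

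Of the receptor genes, Ptger4 and Ptger3 had all 3 TAM values above the other 3. Ptger4 (ENSMUSG00000039942; chromosome 15 of mm9, 5156661 to 5194187), the gene of EP4, had 208, 325 and 151 normalized counts in EtOH 1, 2 and 3. It had 457, 586 and 437 in TAM 1, 2 and 3, and the means were 228 ± 88.7 (SD, n = 3) in EtOH and 493 ± 80.9 (SD, n = 3) in TAM. The pairs differed by 2.20-fold, 1.80-fold and 2.89-fold in the same direction. The log2 fold change of 1.17 had a standard error of 0.30 (95% interval 0.46 to 1.88, unadjusted p = 0.00595, limma adjusted p = 0.192). With the block its standard error was 0.21 (unadjusted p = 0.00205, limma adjusted p = 0.0767). The adjusted p fell under 0.05 with library weights (0.0198) and in the blocked fit without replicate 2 (0.0162), both from limma. The latter fit rests on 2 pairs and was chosen after the data were seen. These settings also passed the most genes of all, 742 and 855, against 29 in the fit without the block. Over the 22 alternatives the adjusted p ran from 0.0162 to 0.755, and the log2 fold change stayed between 0.91 and 1.46. Exons of Ttc33 and Gm15937 on the other strand overlap 16.5% of the exon bases of Ptger4, and the strand setting of the counting is not given in the sources used here. Ttc33 itself had 402 ± 35.4 and 395 ± 78.8 (SD, n = 3 each) normalized counts in the EtOH and TAM groups, a log2 fold change of −0.04 (limma adjusted p = 0.955).

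Ptger3 (ENSMUSG00000040016; chromosome 3 of mm9, 157229856 to 157307722), the gene of EP3, was low. Its normalized counts were 18.6, 8.53 and 17.6 in EtOH 1, 2 and 3 and 20.7, 49.4 and 88.4 in TAM 1, 2 and 3. EtOH 2 lay under the filter of 16.2 normalized counts and EtOH 1 and 3 just above it. Ptger3 therefore needed its TAM values to reach the filter in 3 libraries, which limits what its p-values can support. The groups did not overlap, but TAM 1 lay just above the highest value of the other group, with pair differences of 1.11-fold, 5.79-fold and 5.02-fold. Ptger3 differed by 1.60 on the log2 scale (standard error 0.61, unadjusted p = 0.033, limma adjusted p = 0.320), while blocking gave an adjusted p of 0.251. Over the 21 alternatives that could be run for it, the log2 fold change stayed positive, from 1.13 to 2.33.

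Ptger1 (ENSMUSG00000019464; chromosome 8 of mm9, 86190732 to 86196652), the gene of EP1, varied least within groups of the 7 genes tested (SD of log2 values 0.28). It had 714, 518 and 893 normalized counts in EtOH 1, 2 and 3 and 738, 730 and 782 in TAM 1, 2 and 3. The latter lay within the range of the former. Ptger1 differed by 0.12 on the log2 scale (95% interval −0.41 to 0.64, limma adjusted p = 0.867), while blocking gave an interval of −0.38 to 0.62. Ptger2 (ENSMUSG00000037759; chromosome 14 of mm9, 45607870 to 45623495), the gene of EP2, had 14.8, 8.54 and 19.5 normalized counts in EtOH 1, 2 and 3 and 25.6, 6.69 and 15.1 in TAM 1, 2 and 3. It did not reach the filter, and in a model of all genes above 0 its log2 fold change was 0.03 (95% interval −1.35 to 1.41, limma adjusted p = 0.989).

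Across the set, 7 of the 10 genes passed the filter, and Ptgis, Ptgds and Ptger2 did not. By limma without the block 0 of the 7 were past an adjusted p of 0.05, against 0.244% of all genes tested (0.168% higher and 0.0758% lower in TAM). With the block 0 were as well, against 1.62% (1.00% higher and 0.615% lower). Ptger3 and Ptger4 were higher at an unadjusted p under 0.05 without the block, Ptgs2 as well with it, and 0 were lower. Ptger3 needed its TAM values to pass the filter, which limits its place in this and the following counts. Of all genes tested 6.67% were higher and 6.70% lower without the block, and 8.64% and 8.32% with it. The 2 genes whose groups did not overlap make 28.6% of those tested, and 9.19% of all genes tested had all TAM values above the others, and 11.4% below. Ptgs2, Ptger3 and Ptger4 were higher in 3 of 3 pairs, as were 18.3% of all genes tested, and 0 of the 7 were lower in 3 of 3, as were 23.6%. A positive log2 fold change was found for all 7, with a median of 1.17, against 46.2% of all genes tested and a median of −0.03. For Ptgs1, Ptges, Ptger1 and Hpgd that sign changed when libraries were left out, and for Ptgs1 and Ptger1 also with library weights. With 3 genes under the filter, these counts describe the genes tested and not the whole set.

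**Figure D3:**
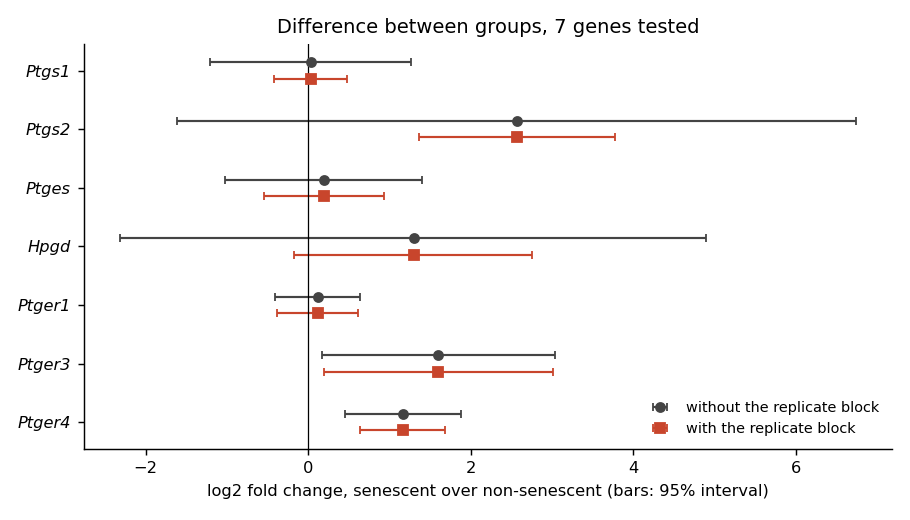
Log2 fold change of the 7 prostaglandin genes tested, TAM over EtOH libraries, with 95% intervals from limma without (circles) and with (squares) the replicate block. The block shortens the intervals of Ptgs2 (from −1.61 to 6.74, to 1.36 to 3.78) and Hpgd most, and those of Ptger3 and Ptger4 lie above 0 in both fits.

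Several of these genes differed between replicate numbers within a group. In the EtOH libraries, replicate 2 was 15.9-fold above the higher of replicates 1 and 3 for Ptgs2, 2.35-fold for Ptgs1 and 3.41-fold for Ptges. In the TAM libraries the folds were 16.5, 2.62 and 1.44. Hpgd in replicate 2 was at 0.0165 of the lower of the other values in the EtOH libraries and at 0.209 in TAM 1, 2 and 3. For Ptger2 these ratios were 0.577 and 0.444. These folds were computed after the values were seen and carry no test. The labels do not say what the replicate numbers mark.

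By Pearson's r of log2 values over the 6 libraries, the genes with the pattern most like that of Ptgs2 were Rgs16, a regulator of G-protein signalling (r = 0.996), B4galt5, a galactosyltransferase (r = 0.996), and Bcl7b (r = 0.995). Rgs16 had 76.3, 1462 and 17.6 normalized counts in EtOH 1, 2 and 3 and 271, 3724 and 180 in TAM 1, 2 and 3. Those most like Ptgs1 were Tyr, the tyrosinase of pigment cells (r = 0.997), Dgat2, an enzyme of triglyceride synthesis (r = 0.995), and AK088743 (r = 0.995). Tyr ran from 18.6 to 55.3 normalized counts, highest in both libraries of replicate 2. Among the prostaglandin genes, Ptgs2 correlated with Ptger4 at r of 0.84, with Ptges at 0.82 and with Ptgs1 at 0.80, and Ptgs1 with Hpgd at −0.84. All of these rest on 6 points that share libraries and their scaling, and the best of 11877 genes are high in so few points by selection.

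Per kilobase of exon, the levels fell in the order Ptges, Ptgs2, Ptgs1, Ptger1, Ptger4, Hpgd, Ptger2, Ptger3, Ptgds and Ptgis in the EtOH libraries. The means were 324, 199, 171, 143, 34.3, 22.2, 3.88, 3.27, 0.560 and 0 normalized counts per kilobase. The first 4 neighbours overlapped in their ranges, since Ptgs2 alone ran from 5.73 to 555, as did Ptger4 with Hpgd, Hpgd with Ptger2, and Ptger2 with Ptger3. Ptger1 and Ptger4 did not overlap. In the TAM libraries Ptgs2 came first, at a mean of 746, ahead of Ptges at 312, but its mean was carried by the 2017 of replicate 2. In TAM 1 and 3 Ptges was the higher, at 240 and 284 against 123 and 97.3. Among all genes tested, the mean over the 6 libraries lay at percentile 85.4 for Ptgs2, 77.9 for Ptges, 62.4 for Ptgs1 and 29.0 for Ptger4.

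The rest of the pathway was described by 7 lists with 94 genes in the table, of which 60 were tested. By limma 0 of them passed an adjusted p of 0.05, without or with the block. At an unadjusted p under 0.05, 5 were higher and 4 lower without the block, and 10 and 2 with it. Over all genes tested the shares were 6.67% higher and 6.70% lower without the block, and 8.64% and 8.32% with it. These shares also stand beside the counts of single lists below. Both counts of higher genes include Adcy5, which passed the filter only through its TAM values. Of the 60 genes 58.3% had a positive log2 fold change, with a median of 0.12, against 46.2% and −0.03 over all genes tested. Named below are the 2 genes of each list with the largest log2 fold change in either direction.

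Of the enzymes that free arachidonic acid, 5 of 15 were tested, and 1 was higher at an unadjusted p under 0.05. Pla2g4a, the cytosolic phospholipase A2 that feeds the cyclooxygenases, lies 139 kb from Ptgs2 on chromosome 1 of mm9. It had 613, 751 and 240 normalized counts in EtOH 1, 2 and 3 and 817, 1805 and 709 in TAM 1, 2 and 3. Its log2 fold change was 1.08 (limma adjusted p = 0.425, or 0.147 when blocked). Mgll, a lipase that releases arachidonic acid from a monoglyceride, had 921, 687 and 659 against 1141, 3359 and 1358 normalized counts, with no overlap. Mgll had a log2 fold change of 1.21 (unadjusted p = 0.0193, limma adjusted p = 0.271). Of those under the filter, the secreted phospholipases Pla2g2f and Pla2g12b were listed at 0 in all 6 libraries.

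Of the other terminal synthases 4 of 7 were tested and 0 were past an unadjusted p of 0.05. Ptges2, a membrane-associated prostaglandin E synthase, had 253, 146 and 254 normalized counts in EtOH 1, 2 and 3 and 293, 293 and 274 in TAM 1, 2 and 3. In log2 terms the difference was 0.44 for Ptges2 (limma adjusted p = 0.527) and 0.26 for Akr1b3, an aldose reductase with prostaglandin F synthase activity (adjusted p = 0.660). Hpgds and Tbxas1, the synthases of prostaglandin D2 in blood cells and of thromboxane, stayed at or under 5.01 normalized counts in every library.

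Of the other prostanoid receptors 4 of 5 were tested and 0 were past an unadjusted p of 0.05. Ptgfr, the prostaglandin F receptor, had 536, 339 and 415 normalized counts in EtOH 1, 2 and 3 and 1139, 284 and 952 in TAM 1, 2 and 3, so replicate 2 went the other way from replicates 1 and 3. Its log2 fold change was 0.68 (limma adjusted p = 0.621). Ptgir, the prostacyclin receptor, had a log2 fold change of −0.34 (limma adjusted p = 0.761) and ran from 107 to 341 normalized counts.

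Of the transport and breakdown genes 7 of 8 were tested. Slco3a1, an organic anion carrier that can carry prostaglandins, had 90.4, 82.0 and 58.3 normalized counts in EtOH 1, 2 and 3 and 231, 677 and 180 in TAM 1, 2 and 3. The groups did not overlap, and the log2 fold change was 1.99 (unadjusted p = 0.00482, limma adjusted p = 0.183, or 0.0864 when blocked). Slco2a1, the prostaglandin transporter that takes the lipid up before Hpgd inactivates it, had 66.2, 211 and 39.7 against 90.5, 994 and 162. Its values were higher in the TAM library in each pair, with a log2 fold change of 1.56 (limma adjusted p = 0.546, or 0.156 when blocked).

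The lipoxygenase branch, which makes leukotrienes from the same arachidonic acid, was thinly expressed, with 4 of 16 genes tested. Alox5, the first enzyme of that branch, did not exceed 0.90 normalized counts in any library. Lta4h, the leukotriene A4 hydrolase, had 1624, 1989 and 2491 normalized counts in EtOH 1, 2 and 3 and 1099, 1330 and 1444 in TAM 1, 2 and 3. Its groups did not overlap, and the log2 fold change was −0.64 (unadjusted p = 0.0188, limma adjusted p = 0.269). Mgst2, a glutathione transferase that can make leukotriene C4, had a log2 fold change of 1.31 on 1.64 to 26.4 normalized counts (limma adjusted p = 0.571).

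Downstream of EP2, EP3 and EP4, 22 of 27 genes of cyclic AMP signalling were tested. Adcy5, an adenylate cyclase, had 9.89, 2.80 and 13.2 normalized counts in EtOH 1, 2 and 3 and 59.4, 166 and 64.1 in TAM 1, 2 and 3. Its log2 fold change of 3.38 was the largest of the 60 genes (unadjusted p = 0.00116, limma adjusted p = 0.113, or 0.115 when blocked). All 3 of its EtOH values lay under the filter of 16.2 normalized counts, so Adcy5 was tested only through its TAM values. These p-values are therefore no support for a difference. Prkar2b, a regulatory subunit of protein kinase A, had a log2 fold change of 0.83 (limma adjusted p = 0.431, or 0.149 when blocked). Gnas, the stimulatory G protein to which EP2 and EP4 couple, had a log2 fold change of −0.16 (limma adjusted p = 0.819).

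Of the genes known to respond to cyclic AMP 14 of 16 were tested, and an unadjusted p under 0.05 was reached by 2 that were higher and 2 that were lower. Has2, the main hyaluronan synthase of fibroblasts, had 1134, 615 and 3116 normalized counts in EtOH 1, 2 and 3 and 97.9, 373 and 239 in TAM 1, 2 and 3. Its log2 fold change was −2.65 (unadjusted p = 0.00562, limma adjusted p = 0.189, or 0.135 when blocked). Nr4a3, an immediate early nuclear receptor, had a log2 fold change of 2.06 but did not reach that level (unadjusted p = 0.197, limma adjusted p = 0.592). Its change rested on 1.62 normalized counts in EtOH 3 against 106 to 219 in the other libraries.

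**Figure D4:**
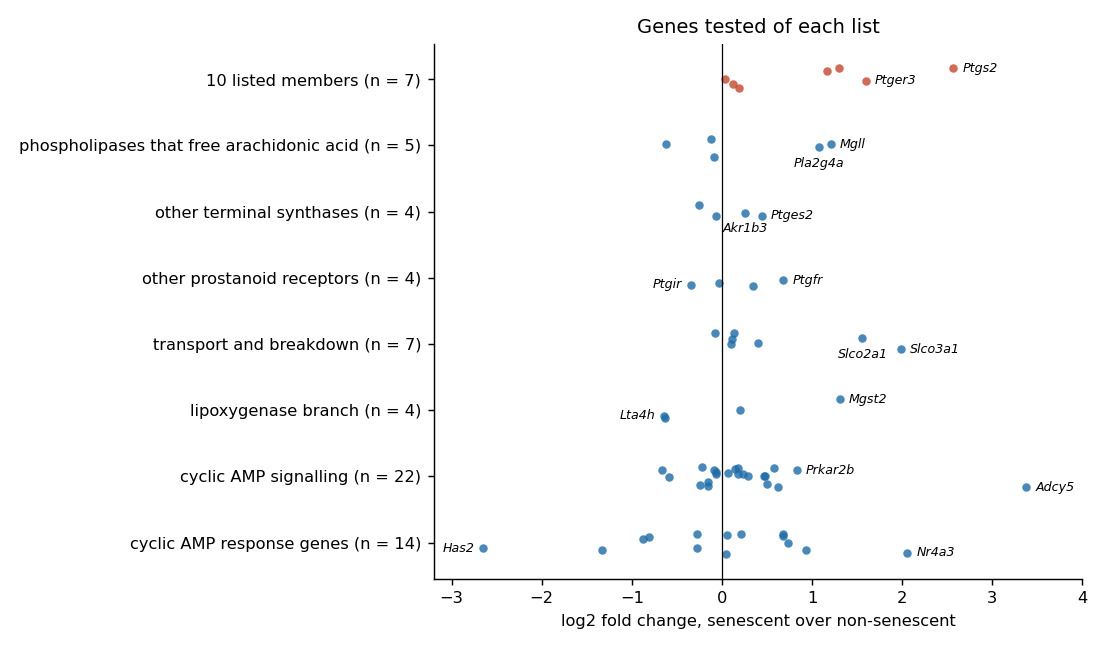
Log2 fold change (TAM over EtOH libraries) of the 7 prostaglandin genes tested (top row) and of the 60 tested genes of 7 other lists; each point is a gene, with a random vertical offset, and 2 genes per row are named. Adcy5 at 3.38 and Has2 at −2.65 are the extremes, and no point is past an adjusted p of 0.05. Adcy5 passed the filter on low values only through its TAM libraries.

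The cell type was checked by marker lists. All 9 fibroblast markers passed the filter, and their summed normalized counts ran from 1531134 to 1679926 in the EtOH libraries and from 684804 to 1127044 in TAM 1, 2 and 3. The highest of the 9 was Col1a1, and 0 of the 9 passed the test with or without the block. Mast cells, a rich source of prostaglandin D2, left almost no trace, with 0 of 7 markers tested, a sum of at most 8.33, and Tpsb2, Cma1 and Fcer1a at 0 throughout. The 8 macrophage markers summed to 152 to 176 in the EtOH libraries and 319 to 458 in TAM 1, 2 and 3, with Csf1r the highest, 3 tested, and Emr1 and Tyrobp at 0 in all. The 6 endothelial markers summed to 85.8 to 241 and 15.7 to 35.1, with Kdr the highest and Cldn5 at 0. The 5 smooth muscle and pericyte markers, led by Cnn1, summed to 633 to 1099 and 1654 to 8285, the highest sum being that of TAM 2. The 7 keratinocyte markers summed to 80.2 to 88.6 and 63.5 to 122, the 6 melanocyte markers to 134 to 255 and 141 to 190, and the 5 adipocyte markers to 12.2 to 338 and 37.7 to 103. Ptgs2 was highest in EtOH 2 among the EtOH libraries and in TAM 2 among the TAM libraries. So were the macrophage sums (176 and 458) and the adipocyte sums (338 and 103). No other list had its highest sum in both, and the smooth muscle and pericyte sum was lowest in EtOH 2 (633). Of all these markers, 1 endothelial gene passed the test with the block and 0 without it. The part of other cell types in the values of the prostaglandin genes was not tested, and in bulk RNA fewer cells of a type and less RNA per cell cannot be told apart.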

How the data were processed

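Poly(A) RNA of 6 MSF samples, 3 treated with TAM and 3 with ethanol, was analysed as labelled. The authors mapped reads to mm9 with TopHat, counted them per gene with HTSeq and used edgeR, as the processing notes and methods state, and versions are not given in the sources used here. The deposited signal is a table of normalized counts whose scaling is not stated. The values are not whole numbers, so limma 3.58.1 in R 4.3.3 was used on log2(value + 1) with an intensity trend in place of the authors' count test. Testing was limited to genes that reached 1 c.p.m. in 3 or more of the 6 libraries, at a Benjamini-Hochberg threshold of 0.05. Precision is that of 3 libraries against 3, since read totals and counting errors are unknown. The replicate numbers of the titles were accepted as pairs because same-numbered libraries deviated together in all 3 cases (r across genes of 0.24, 0.29 and 0.42, against −0.31 to 0.04 for different numbers). Gene positions, exon lengths and overlaps came from the mm9 annotation, in which 22148 of 22162 genes were found on the same chromosome. The model was first tested on simulated data. Tables were made in Python 3.11.15 with pandas 2.3.3, and plots with matplotlib 3.10.9.

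The members, lists and tests were chosen with earlier results of these data known. The text names all 10 members, the 2 genes of each other list with the largest absolute log2 fold change and any gene past the threshold, and the 3 genes most like Ptgs2 and Ptgs1. Gnas, Alox5, Hpgds, Tbxas1, Pla2g2f and Pla2g12b were named after their values were seen. Alternatives were scaling by library size, by median ratios and by quantiles, other filters, pseudocounts of 0.1 and 10, the replicate block, library weights and leaving out each library. Leaving out both libraries of a replicate number, and the block with no filter, were added after seeing the data. One result on an overlap between genes is not reported here.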

Additional observations from a re-analysis of the deposited data

How the results depend on the processing

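The count of prostaglandin genes past the threshold was 0 without the replicate block, with it, under other scalings, filters and pseudocounts, and without any single library (range 0 to 0). It was 1 (Ptger4) with library weights, 1 (Ptgs2) in the blocked fit without replicate 1 of both groups and 2 (Ptgs2 and Ptger4) in the blocked fit without replicate 2 of both groups. For the other pathway genes the count was 0, and 3 (Has2, Adcy5 and Slco3a1) with library weights, 1 (Slco2a1) and 5 (Adcy3, Pde4d, Has2, Slco3a1 and Ptgfr) in those blocked fits, and 1 (Alox5ap) with the block and no filter on low values. For all genes it was 29, and 17 without a filter, 18 with at least 10 in every library, 192 with the block, 205 with the block and no filter, 742 with library weights, and 0 to 15 without a single library. Without both libraries of replicates 1, 2 and 3 it was 0, 9 and 11, and 142, 855 and 88 with the block. The block changed no call of a prostaglandin gene.

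The log2 fold change of Ptgs1 (0.03) turned to −0.12 with library weights, to between −0.47 and 0.48 without a single library, to −0.06 without replicate 1 and to −0.02 without replicate 2. That of Ptges (0.19) ran from −0.16 to 0.81 without a single library and was −0.03 without replicate 3. That of Ptger1 (0.12) was −0.01 with library weights, ran from −0.09 to 0.30 without a single library and was −0.07 without replicate 2. That of Hpgd ran from −0.35 to 2.32 without a single library, the former without EtOH 2 alone, and was 0.67 without replicate 2 of both groups. Values without a replicate number were equal with and without the block. The cause of these changes was not tested. Ptgs2 and Ptger4 stayed positive under all 22 alternatives, Ptgs2 between 1.05 and 4.32, and Ptger3 under the 21 run for it, since it did not reach 10 in every library. The depth behind most libraries is unknown, which limits what can be said of Ptgis, Ptgds, Ptger2 and Ptger3.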
